A study of Mus musculus with 6 samples.

Results

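The cytosol of a macrophage holds proteins that detect RNA or DNA where it should not be. The helicases encoded by Ddx58 (RIG-I) and Ifih1 (MDA5) bind double-stranded RNA and pass the signal to MAVS on the mitochondrial surface, and Dhx58 (LGP2) is a related helicase that modulates them. Mb21d1 encodes cGAS, which binds DNA and makes cyclic GMP-AMP, the ligand of STING, encoded by Tmem173. Both routes meet at the kinase TBK1, which phosphorylates the transcription factor IRF3 and so induces type I interferon. Eif2ak2 encodes PKR, which halts translation when it binds double-stranded RNA, Zbp1 encodes a sensor of Z-form nucleic acids that can trigger necroptosis, and Trex1 encodes a DNA exonuclease that removes DNA before cGAS meets it.

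These 10 genes were taken by symbol from a table of 24848 genes, and all 10 are listed in it. Messenger RNA libraries were sequenced from RAW 264.7 cells, a mouse macrophage-like tumour line, in 3 libraries of wild-type cells (WT) and 3 libraries of cells labelled APOBEC1 KO (KO). APOBEC1 is a cytidine deaminase that edits C to U in RNA. Both groups were grown in the same medium and prepared with the same kits, no stimulus is named for either, and the replicates came from separate plates. The labels do not say how the knockout was made or whether it is a clone, so loss of APOBEC1 cannot be told apart from any other difference between these cells. The spread behind each p-value is that between plates.

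Between 50493447 and 70411383 reads per library were assigned to genes. Transcript levels are in CPM, the reads of a gene scaled to a common library total, and each SD is over 3 libraries. Log2 fold changes compare KO with WT on log2(CPM + 0.5), a scale on which low genes appear to change less than they do, and are given with their SE. A gene is called when its adjusted p, from limma with Benjamini-Hochberg adjustment over all tested genes, is under 0.05. Of 10614 tested genes, 30.4% were called, 13.5% higher and 16.9% lower in KO, and 46.4% had groups without overlap. Apobec1 itself stood at 373, 431 and 396 CPM in WT replicates 1 to 3 and at 339, 340 and 361 CPM in KO replicates 1 to 3, with a log2 fold change of -0.20 ± 0.07 (limma adjusted p = 0.0663). Since the labels do not name the change made in the gene, this level does not check them.

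All 10 macrophage markers listed for the check of cell identity were tested, among them Lyz2, Cd68 and Csf1r. Their summed level was 3667 to 3810 CPM in WT and 3970 to 4402 CPM in KO, with 3 called higher and 2 lower. Markers of B cells and of T and NK cells summed to at most 0.376 CPM in any library, with Ms4a1, Cd3e and Cd8a at 0, and those of fibroblasts, epithelium and endothelium to at most 0.401 CPM. The dendritic cell markers, mainly Zbtb46, summed to 4.42 to 5.33 CPM in WT and 2.19 to 2.66 CPM in KO, with Cd209a at 0. The neutrophil and mast cell markers, almost all S100a8, summed to 1.15 to 1.33 CPM in WT and 3.17 to 4.57 CPM in KO, with S100a9, Ly6g, Elane and Mpo at 0. The part of these differences in the results below was not tested.

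Among the sensors and adaptors, Ifih1 and Ddx58 fell in KO and Mavs rose. Ifih1 stood 3.93-fold lower and Ddx58 1.39-fold lower, while Mavs went from 49.7 ± 3.64 to 64.8 ± 3.43 CPM. The other 5 tested members, Dhx58, Tmem173, Mb21d1, Eif2ak2 and Tbk1, were not called. Zbp1 lay below the minimum for the test, 1 CPM in at least 3 libraries, and Trex1 is listed at 0 in all 6 libraries. Thus 3 of 8 tested members were called, 1 higher and 2 lower, beside 30.4% of all tested genes. The median log2 fold change of the 8 was -0.01, against -0.02 for all tested genes, and 4 members had a positive and 4 a negative value. The groups did not overlap for the 3 called members, beside 46.4% of all tested genes. In bulk RNA, fewer cells with a transcript and less transcript per cell cannot be told apart.

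**Figure D1:**
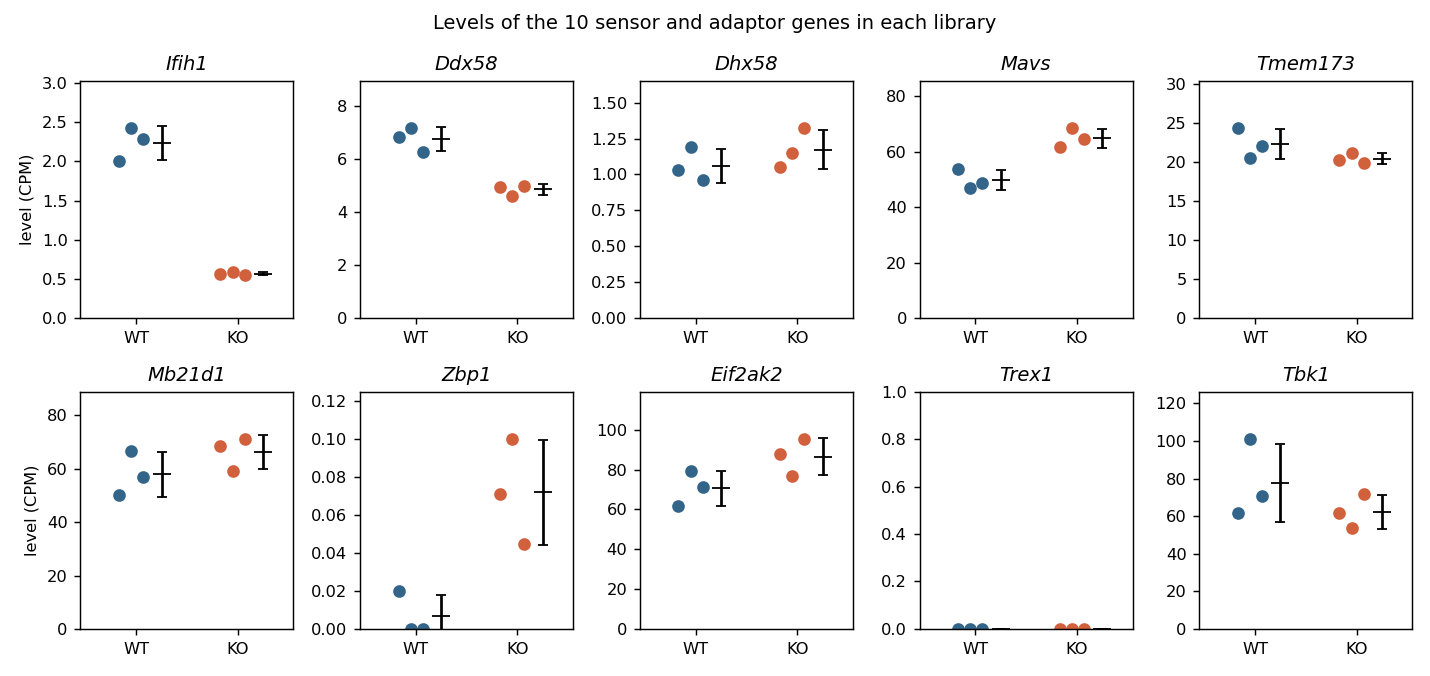
Level of each of the 10 genes in CPM (vertical axes, each from 0) in the 3 WT libraries (blue) and 3 KO libraries (red), with replicates 1 to 3 from left to right, and the mean ± SD as black bars. The groups do not overlap for Ifih1, Ddx58, Mavs and Zbp1, whose highest value is 6 reads and whose WT bar is cut at 0, and Trex1 lies at 0.

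Ifih1 had the largest change among the 8 tested members (mm10 chromosome 2, 62595798 to 62646255, minus strand, protein-coding). It stood at 2.00, 2.42 and 2.29 CPM in WT replicates 1 to 3 and at 0.568, 0.586 and 0.555 CPM in KO replicates 1 to 3. Every KO library lay below every WT library, and the KO libraries differed from each other by a factor of only 1.06. The values rest on 101 to 163 reads per WT library and 35 to 40 reads per KO library. The log2 fold change was -1.35 ± 0.11 (limma adjusted p = 6.79e-05), and 2.56% of all tested genes were called with a log2 fold change of -1 or lower. Ifih1 passed the minimum of 1 CPM only through the WT libraries. Without that minimum the limma call was the same (adjusted p = 0.000137).

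The fall of Ifih1 ran against its chromosome. The other 862 tested genes of chromosome 2 had a median log2 fold change of 0.34, with 58.4% called higher and 5.10% called lower. Only 10 of the 862 were as low as Ifih1 or lower. With the chromosome median subtracted in each library, the log2 fold change of Ifih1 was -1.69 (limma adjusted p = 1.36e-05).

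Ddx58 (chromosome 4, 40203773 to 40239828, minus strand) fell less. It stood at 6.81, 7.15 and 6.25 CPM in WT and at 4.94, 4.62 and 5.00 CPM in KO, again with every KO library below every WT library. The log2 fold change was -0.43 ± 0.09 (limma adjusted p = 0.00856). The call was lost under quantile normalization, where the log2 fold change was -0.22 (limma adjusted p = 0.0892). The ratio of Ifih1 to Ddx58 within a library, which does not depend on the library total, was 0.294, 0.338 and 0.367 in WT and 0.115, 0.127 and 0.111 in KO. The ratios did not overlap, so Ifih1 fell further than Ddx58 in each KO library, with an exact two-sided permutation p = 0.1, which is the lowest value this design can reach.

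The related helicase gene Dhx58 (chromosome 11, 100694884 to 100704271, minus strand) did not follow. It stood at 1.03, 1.19 and 0.959 CPM in WT and at 1.05, 1.15 and 1.32 CPM in KO, and the groups overlapped. The log2 fold change was 0.10 ± 0.11, with a 95% interval from -0.16 to 0.37 (limma adjusted p = 0.535). Quantile normalization gave a log2 fold change of 0.53 (limma adjusted p = 0.00674).

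Ddx58, Ifih1, Dhx58, Zbp1 and Eif2ak2 are among the members known as interferon-inducible genes. Ifih1 and Ddx58 were called lower, Dhx58 and Eif2ak2 were not called, and Zbp1 lay below the minimum. The interferon response element, searched on both strands as GAAA, any 2 bases and GAAA (or its reverse complement, TTTC, any 2 bases and TTTC), was looked for from 250 bases before to 50 bases after each annotated start in the RefSeq promoter sequences (build GRCm38.p6). Of the 10 members, 7 had a promoter there, and Dhx58, Tmem173 and Zbp1 had none. The motif was found for 3 of the 7, against 3.99% of all 27025 genes with a promoter. The 3 are Ifih1 and Ddx58, which were called lower, and Eif2ak2, which was not called and had a log2 fold change of 0.29. Their windows were chosen for display after these values were seen, and a part of the motif in the changes was not tested. Each window has 30 bases on the strand of the gene, with the motif in capitals.

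Ifih1: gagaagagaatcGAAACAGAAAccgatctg
Ddx58: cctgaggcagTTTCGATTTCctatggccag
Eif2ak2: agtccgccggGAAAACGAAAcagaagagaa

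The Ifih1 window lies at chr2:62646206-62646235, the Ddx58 window at chr4:40239804-40239833 and the Eif2ak2 window at chr17:78882535-78882564, all on the minus strand. The motif began 32, 2 and 18 bases after the start of the respective transcript, on the strand of the gene in Ifih1 and Eif2ak2 and on the other strand in Ddx58. Of the 306 tested genes with the motif, 47 were called higher (15.4%) and 71 lower (23.2%), against 13.8% higher and 16.6% lower of 8181 tested genes without it. The median log2 fold changes of these sets were -0.03 and -0.02. A match of letters is a description and does not show binding.

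Eif2ak2 (chromosome 17, 78852564 to 78882573, minus strand) was at 61.7, 79.1 and 71.2 CPM in WT and at 87.6, 76.7 and 95.3 CPM in KO. KO replicate 2 lay below WT replicate 2, and the other KO libraries lay above all WT libraries. The log2 fold change was 0.29 ± 0.11, with a 95% interval from 0.03 to 0.55, and missed the threshold after adjustment (limma adjusted p = 0.0862). It passed the threshold in 6 of 19 alternatives, among them TMM scaling (limma adjusted p = 0.0276), the edgeR quasi-likelihood test on recovered reads (adjusted p = 0.0360), DESeq2 (adjusted p = 0.0126) and the run without WT replicate 2 (limma adjusted p = 0.0281). Over all 19, adjusted p ranged from 0.00341 to 0.242, and the log2 fold change was positive in each.

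Mavs, the adaptor that joins RIG-I and MDA5 to TBK1, rose (chromosome 2, 131234063 to 131248025, plus strand). It stood at 53.8, 46.8 and 48.6 CPM in WT and at 61.5, 68.3 and 64.5 CPM in KO. Every KO library lay above every WT library. The log2 fold change was 0.38 ± 0.08 (limma adjusted p = 0.00784). The rise did not stand apart from chromosome 2, where 43.6% of the other 862 tested genes rose as much or more. With the chromosome median subtracted in each library, the log2 fold change of Mavs was 0.04 and the call was lost (limma adjusted p = 0.724).

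**Figure D2:**
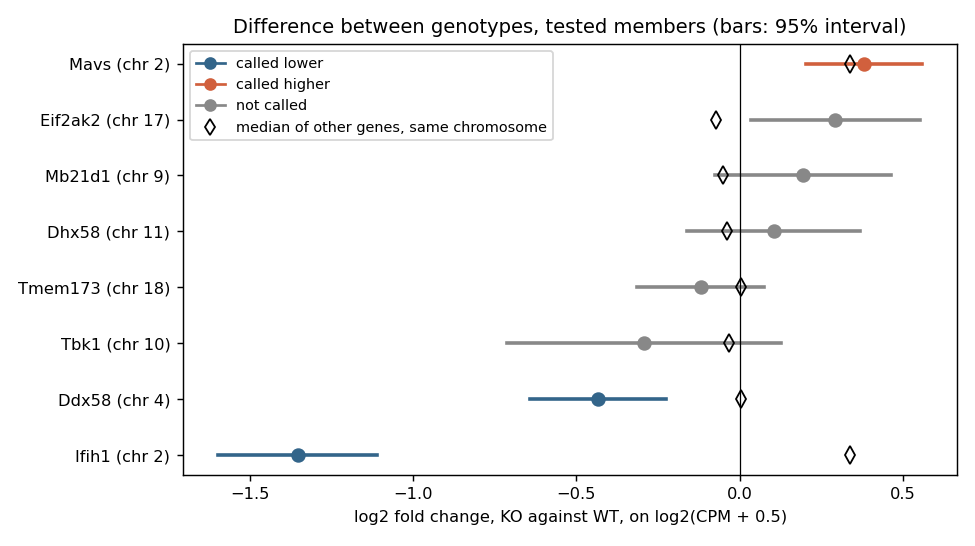
Log2 fold change of the 8 tested members (horizontal axis, KO against WT on log2(CPM + 0.5)) with 95% intervals from limma, coloured by call, and the median of the other tested genes of the same chromosome as open diamonds. Mavs sits beside the diamond of chromosome 2 at 0.34, while Ifih1, on the same chromosome, lies at -1.35.

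On the DNA-sensing side no member was called. Mb21d1 (chromosome 9, 78430526 to 78443237, minus strand) stood at 50.1, 66.8 and 57.0 CPM in WT and at 68.4, 59.1 and 71.1 CPM in KO, with overlapping groups and a log2 fold change of 0.19 ± 0.12 (95% interval -0.07 to 0.46, limma adjusted p = 0.245). Tmem173 (chromosome 18) stood at 24.3, 20.5 and 22.1 CPM in WT and at 20.2, 21.2 and 19.9 CPM in KO. Its groups overlapped as well, and the log2 fold change was -0.12 ± 0.08 (95% interval -0.31 to 0.07, limma adjusted p = 0.325). The ratio of Mavs to Tmem173 within a library was 2.21, 2.28 and 2.20 in WT and 3.04, 3.22 and 3.24 in KO. The ratios differed by 0.51 on the log2 scale without overlap (exact two-sided permutation p = 0.1, the smallest possible). With the chromosome medians subtracted, the log2 fold changes of Mavs and Tmem173 were 0.04 and -0.11, so most of this difference moved with chromosome 2.

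Trex1 (chromosome 9, 109057933 to 109059734, minus strand) is listed at 0 in every library. In the GENCODE M21 annotation all of its exon bases also lie in exons of Atrip on the same strand, and Atrip is listed at 0 in every library too. How the authors counted reads that fall in more than 1 gene is not known here, so no level can be given for Trex1, and these zeros do not show that it is silent.

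Tbk1, the kinase on which both routes meet, had the largest SD relative to its mean in each group among the 8 tested members, 26.3% in WT and 14.7% in KO (chromosome 10, 121546455 to 121586787, minus strand). It stood at 61.5, 101 and 70.8 CPM in WT and at 61.6, 53.6 and 71.9 CPM in KO. WT replicate 2 stood far above the other 5 libraries, which spanned 53.6 to 71.9 CPM. The log2 fold change was -0.29 ± 0.18, with a wide 95% interval from -0.71 to 0.13 (limma adjusted p = 0.263). Without WT replicate 2 it was -0.09 (limma adjusted p = 0.620).

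The order of libraries within a group was shared by several members. Tbk1, Mb21d1 and Eif2ak2 were each highest in WT replicate 2 and lowest in WT replicate 1, and highest in KO replicate 3 and lowest in KO replicate 2. Mavs and Tmem173 went the other way, with their highest WT value in replicate 1, their lowest in replicate 2 and their highest KO value in replicate 2. The longest annotated transcripts of Tbk1, Mb21d1 and Eif2ak2 have a GC content of 45.4%, 45.9% and 43.9%, and those of Mavs and Tmem173 of 53.9% and 51.2%. Ddx58, at 46.6% GC, was highest in WT replicate 2 and KO replicate 3 and lowest in KO replicate 2, but lowest in WT replicate 3. Other members did not go with their GC content. Dhx58, at 53.9% GC, was highest in WT replicate 2 and KO replicate 3. Ifih1, at 42.8%, was highest in WT replicate 2 and lowest in WT replicate 1, but highest in KO replicate 2 and lowest in KO replicate 3. Once each library had been corrected for transcript length and GC content, the SE of Eif2ak2 went from 0.11 to 0.06, that of Mb21d1 from 0.12 to 0.07 and that of Tbk1 from 0.18 to 0.13. The SE of Ddx58, Mavs and Tmem173 fell as well, while those of Ifih1 and Dhx58 stayed at 0.11. Eif2ak2 (log2 fold change 0.29, limma adjusted p = 0.00341) and Mb21d1 (0.21, limma adjusted p = 0.0344) were then called higher, and Tbk1 was not (-0.26, limma adjusted p = 0.137). Over all genes, 5116 of 10565 were called after this correction, against 3230 of 10614 before it. The share of reads from the ribosomal RNA precursor Rn45s was 2.75%, 0.381% and 2.43% in WT replicates 1 to 3 and 1.40%, 0.542% and 0.635% in the KO libraries, and its part in these patterns was not tested.

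Zbp1 (chromosome 2, 173206612 to 173218923, minus strand) was close to the detection limit. It had 1, 0 and 0 reads in WT replicates 1 to 3 and 5, 6 and 3 reads in KO replicates 1 to 3. That is 1 read in all WT libraries together and 14 in all KO libraries, a ratio per library total of 12.5 with an exact 95% counting interval from 1.91 to 530. WT replicates 2 and 3, with 0 reads, allow up to 0.0445 and 0.0514 CPM (3 reads), and KO replicate 3, with 3 reads, was at 0.0450 CPM. The groups did not overlap (exact two-sided permutation p = 0.1, the smallest possible), and KO replicate 3 was at its own limit of 3 reads. Without the minimum, Zbp1 was called higher (log2 fold change 0.17, limma adjusted p = 0.0217). That made 4 of 9 tested members called, beside 3497 of 17165 genes tested in that setting. The genes of chromosome 2 tested above the minimum had a median log2 fold change of 0.34, and its part in the Zbp1 call was not tested.

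Levels of different genes are compared per kilobase of the longest annotated transcript. In WT, Tbk1 was highest at 25.7 ± 6.75 CPM per kb, followed by Eif2ak2 (16.4 ± 2.02), Mavs (16.3 ± 1.19) and Mb21d1 (14.3 ± 2.07), which did not differ beyond their spread. Tmem173 followed at 9.70 ± 0.835 CPM per kb. The RNA helicase sensors were far lower, with Ddx58 at 1.74 ± 0.118, Dhx58 at 0.439 ± 0.0484 and Ifih1 at 0.409 ± 0.0393 CPM per kb, and the last pair overlapped. In KO, Mavs (21.2 ± 1.12), Tbk1 (20.6 ± 3.02) and Eif2ak2 (20.1 ± 2.17) were within their spread, and Ifih1 dropped to 0.104 ± 0.00279 CPM per kb, below Dhx58 at 0.487 ± 0.0563. Both groups thus carried more transcript for the adaptors, the kinases and cGAS than for the RNA helicase sensors. With all annotated exon bases as the length, the order of ranks 2 to 4 in WT changed and the rest did not.

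The 5 lists of further genes of these pathways held 132 genes, of which 101 were tested. Of these, 15 were called higher and 14 lower, with a median log2 fold change of 0.02, against 30.4% called and a median of -0.02 over all tested genes. With TMM scaling the split was 25 higher and 12 lower. Of the 11 tested list genes on chromosome 2, 6 were called higher and 0 lower by limma, with a median of 0.35. Of the 862 tested genes of chromosome 2 other than Ifih1, 58.4% were called higher and 5.10% lower, with a median of 0.34.

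Among 30 tested signalling partners of the RNA sensors, 4 rose and 1 fell, with a median of 0.06. Ikbke, which encodes the TBK1-related kinase IKK-epsilon, was at 22.8, 24.7 and 21.5 CPM in WT and 33.8, 34.6 and 36.2 CPM in KO, a rise of 1.52-fold (log2 fold change 0.59 ± 0.08, limma adjusted p = 0.00102). Tbkbp1, an adaptor of TBK1, rose 1.55-fold from 38.7 ± 3.34 to 59.9 ± 3.17 CPM. Both kept their call in all 19 alternatives, while Tbk1 itself was not called in any. Traf6, a ubiquitin ligase downstream of MAVS, rose 1.34-fold and Itch, a ligase that targets MAVS for degradation, 1.28-fold. Both lie on chromosome 2 and lost their call with the chromosome median subtracted (log2 fold changes 0.08 and 0.02), and Itch lost it in 8 of 19 alternatives, among them the runs without WT replicate 3 or any 1 KO library. Ppp1ca, a phosphatase subunit that acts on RIG-I and MDA5, went from 292 ± 21.8 to 243 ± 20.4 CPM (limma adjusted p = 0.0483), a call lost in 14 of 19 alternatives, the runs without any 1 library other than WT replicate 2 included (highest limma adjusted p = 0.144). Of genes named here after their values were seen, the RIG-I ubiquitin ligase Trim25 was at 201 ± 11.1 and 200.1 ± 15.3 CPM and Irf3 at 27.7 ± 2.68 and 24.4 ± 0.395 CPM in WT and KO, neither called.

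Among 31 tested genes of DNA sensing and nucleic acid clearance, 4 rose and 5 fell, with a median of -0.01. The falls were led by Mndal, Ifi203 and Ifi204, genes of the interferon-inducible Ifi200 cluster on chromosome 1. Mndal was at 12.4, 19.3 and 18.3 CPM in WT and 4.19, 3.11 and 3.47 CPM in KO, 4.64-fold lower (log2 fold change -2.05 ± 0.18, limma adjusted p = 0.000117). Ifi203 fell 3.13-fold from 21.4 ± 4.46 to 6.84 ± 0.661 CPM and Ifi204, the mouse counterpart of the DNA sensor IFI16, 3.00-fold from 2.58 ± 0.349 to 0.859 ± 0.104 CPM. Ifi204 passed the minimum only through the WT libraries, and without that minimum its limma adjusted p was 0.000752. The genes of this cluster are close copies of each other, so reads may be split between them. Samhd1, an enzyme that depletes deoxynucleotides, rose 1.40-fold from 162 ± 4.61 to 226.5 ± 3.45 CPM. Lrrc8a, a channel subunit that passes cyclic GMP-AMP, rose 1.43-fold. Both lie on chromosome 2 and lost their call with its median subtracted (log2 fold changes 0.14 and 0.18).

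Among 21 tested effectors of double-stranded RNA and eIF2alpha kinases, 3 rose and 3 fell, with a median of 0.05. Oas3, an oligoadenylate synthetase that senses double-stranded RNA, fell 1.87-fold (29.7, 30.4 and 31.5 CPM in WT, 15.7, 16.4 and 17.0 CPM in KO, limma adjusted p = 8.1e-05). Oas1c fell 1.60-fold. It belongs to a cluster of similar genes, so its reads may be shared. In the other direction Oasl1, an inhibitor of Irf7 translation, rose 2.31-fold from 1.29 ± 0.113 to 2.98 ± 0.296 CPM. Ifit1, which binds viral RNA ends, rose 3.80-fold from 0.319 ± 0.0710 to 1.21 ± 0.145 CPM and passed the minimum only through the KO libraries.

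Among 11 tested partners of ZBP1 and genes of necroptosis, 2 rose and 2 fell, with a median of 0.02. Ripk3, the kinase that ZBP1 recruits, was at 4.36, 3.61 and 4.14 CPM in WT and 20.8, 22.2 and 20.2 CPM in KO. This 5.21-fold rise was the largest in any of the 5 lists (log2 fold change 2.25 ± 0.09, limma adjusted p = 2.74e-06). Ripk1 rose 1.31-fold. Cflar, an inhibitor of caspase-8, fell 1.37-fold and Birc3, a ubiquitin ligase of RIPK1, 1.34-fold. The Birc3 call was lost in 3 of 19 alternatives, among them the runs without KO replicate 1 and without KO replicate 2, with a highest limma adjusted p = 0.0620.

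**Figure D3:**
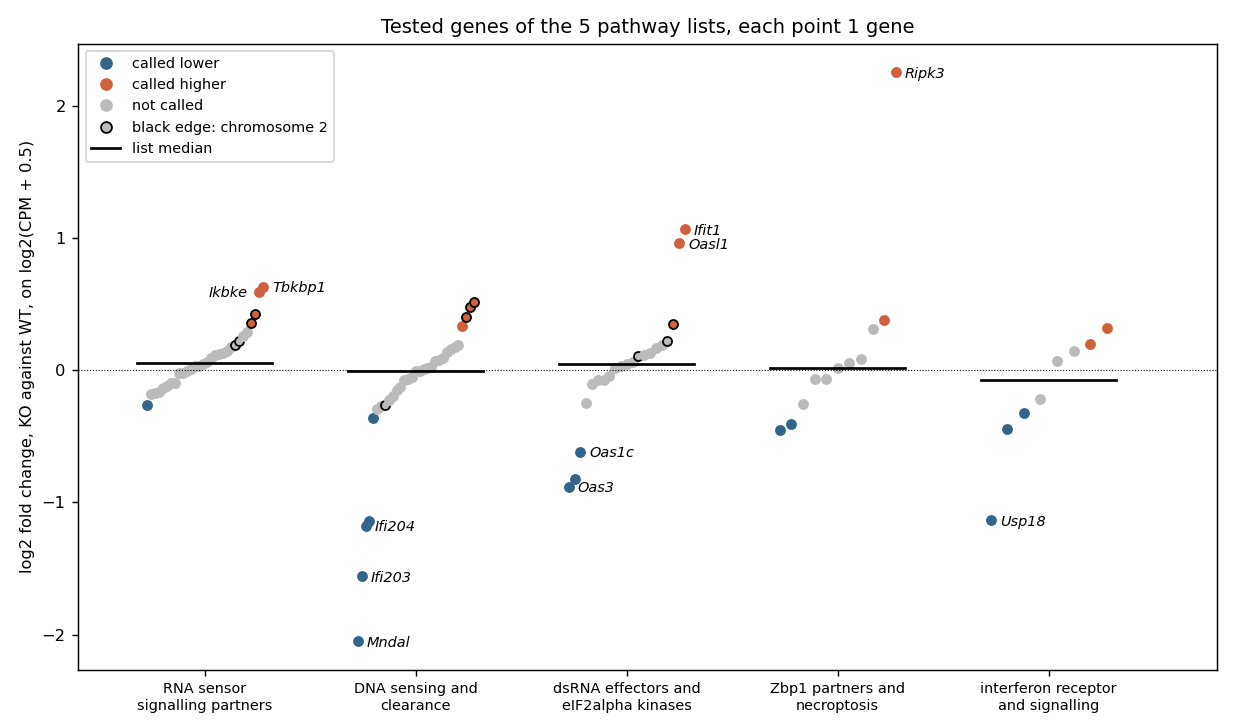
Log2 fold change (vertical axis, KO against WT on log2(CPM + 0.5)) of the 101 tested genes of the 5 pathway lists, 1 point per gene ordered by value within its list, coloured by call, with genes of chromosome 2 ringed in black and list medians as lines. Ripk3 at 2.25 and Mndal at -2.05 are the extremes, while the medians lie between -0.07 and 0.06.

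The last list held type I interferon genes with their receptor and signalling. Of its 17 interferon genes, 16 are listed at 0 in every library, Ifnb1 among them, and Ifna13, the exception, had 1 read in 1 KO library. By counting error alone, a count of 0 allows up to 0.0426 to 0.0594 CPM per library. How reads that match more than 1 gene were counted is not known here, so reads of similar interferon genes may be missing from these counts. Of the 8 tested genes of the list, 2 rose and 3 fell. Usp18, which removes ISG15 and restrains the interferon receptor, fell 2.28-fold (15.2, 16.0 and 15.7 CPM in WT, 6.59, 7.58 and 6.39 CPM in KO, limma adjusted p = 7.1e-05). Stat2 fell 1.38-fold and Tyk2 1.26-fold, while Jak1 rose 1.25-fold and Ifnar2 1.15-fold. The calls of Stat2, Tyk2 and Ifnar2 were lost in 6, 4 and 8 of 19 alternatives, among them for each gene the runs without WT replicate 2, KO replicate 1 or KO replicate 2, with highest limma adjusted p of 0.113, 0.0956 and 0.178. The Stat2 call was also lost without WT replicate 1, and the Ifnar2 call without WT replicate 3 or KO replicate 3. Interferon-inducible genes thus changed in both directions, with Ifih1, Ddx58, Oas3, Usp18, Mndal, Ifi203 and Ifi204 lower and Ifit1 and Oasl1 higher in KO. Others, Dhx58, Eif2ak2 and Aim2 among them, were not called. Isg15 and Irf7, named after their values were seen, were below the minimum at 0.130 ± 0.0669 and 0.527 ± 0.0724 CPM in WT and 0.530 ± 0.139 and 0.748 ± 0.111 CPM in KO.

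**Figure D4:**
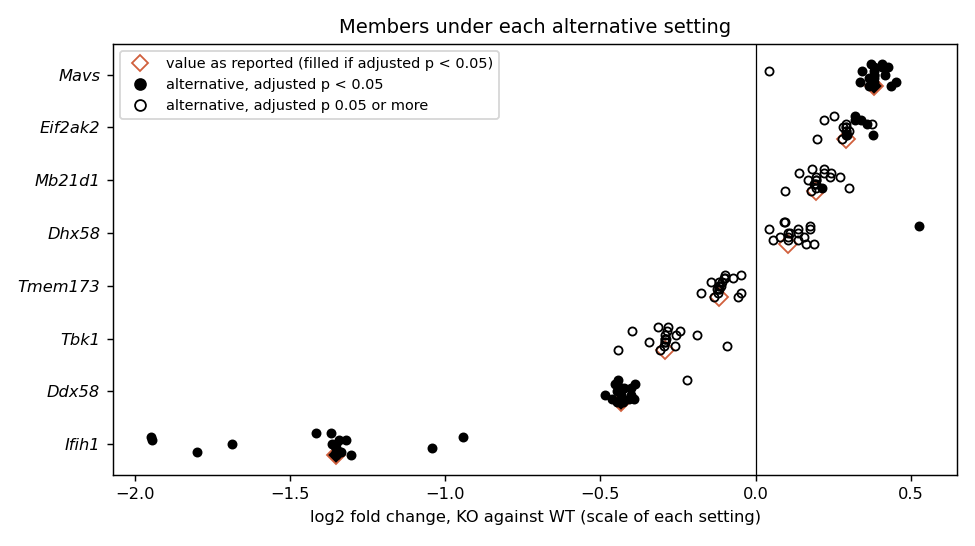
Log2 fold change of each tested member (horizontal axis, KO against WT on the scale of each setting) as reported (diamonds) and under each alternative (circles), filled where the adjusted p was under 0.05. Ifih1 was called under every alternative that tested it, at -1.95 to -0.94, and no member changed direction.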

How the data were processed

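The authors deposited 1 table of CPM values per gene for 3 WT and 3 KO libraries. The submitters' processing notes name mm10 as the build and list STAR 2.6.0a, SAMtools, Picard, Trim Galore and FastQC. Per the file headers, the values come from alignments named as deduplicated, and removal of duplicate reads can lower the counts of abundant transcripts most. Which program counted the reads, against which annotation and with what strand setting, is not given in the sources. All CPM values (100% in each library) were whole multiples of 1 read within 0.01 of a read, which gave the library totals of 50493447 to 70411383 reads and 1 read as 0.0142 to 0.0198 CPM.

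The 10614 genes that reached 1 CPM in 3 or more libraries were tested as log2(CPM + 0.5) with limma 3.58.1 (R 4.3.3, mean-variance trend, Benjamini-Hochberg over all tested genes, threshold 0.05). edgeR 4.0.16, which called 3359 genes, and DESeq2 1.42.0 were run on the recovered reads as alternatives, beside other pseudocounts, minimums, scalings and leave-one-out runs. The code was tested on simulated data. Exact permutation tests used scipy 1.17.1 (Python 3.11.15). Gene positions and lengths came from GENCODE M21, matched by 24305 current and 136 older symbols, with 407 unmatched.

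The text names all 10 members and, from each pathway list, up to 5 called genes by adjusted p. Some genes of the lists are not reported here. The members and lists were chosen with earlier results of these data known. Intervals on reads and limits for a count of 0 (3 reads) cover counting error only.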

Additional observations from a re-analysis of the deposited data

How the results depend on the processing

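No member changed direction under any of the 19 alternatives that tested it. Over all genes, 3230 were called (1436 higher, 1794 lower), 5116 (2969 higher, 2147 lower) after removal of the length and GC trend, and 1973 to 3761 when 1 library was left out, the fewest without KO replicate 1. TMM scaling gave 1839 higher and 1570 lower, quantile normalization 1570 and 1486, and DESeq2 1870 and 1888. Of the 8 tested members, 3 were called, 5 after removal of the trend, and 3 to 4 when 1 library was left out. Of the 101 pathway genes, 29 were called, 49 (32 higher, 17 lower) after removal of the trend, 38 (25 higher, 13 lower) with DESeq2, and 21 to 31 when 1 library was left out. The causes were not tested. Same-numbered WT and KO libraries did not deviate together (correlations of -0.25, -0.64 and -0.17), and unlike-numbered ones ranged from -0.44 to 0.61. With 3 libraries per group, each set against its group mean, these correlations cannot show whether the numbers pair the samples. With the replicate block, 2009 genes (891 higher, 1118 lower), 2 members and 21 pathway genes were called, and Ddx58 missed the threshold (limma adjusted p = 0.0525). Of the 24 named pathway genes, 15 kept their call in every alternative that tested them and 9 lost it in at least 1. Depth limits Zbp1, at no more than 6 reads per library, and the interferon genes. The minimum of 5 CPM left Ifih1 and Dhx58 untested.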
